A study of Mus musculus with 6 samples.

Results

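The importins are the carriers that bring proteins into the nucleus, and 10 of their genes were followed here: the importin alpha genes Kpna1, Kpna2, Kpna3, Kpna4, Kpna6 and Kpna7, and the importin beta family genes Kpnb1, Tnpo1, Ipo5 and Ipo7. They were taken by gene symbol from a table of 25239 genes, and all 10 symbols were present. Counts came from 6 Smart-seq3 libraries of mouse oocytes taken at the germinal vesicle stage (GV), in which the nucleus is still intact before meiosis resumes. Smart-seq3 is a single-cell method that primes reverse transcription on the poly(A) tail and yields cDNA over the length of the transcript. Cumulus-oocyte complexes came from CD-1 females aged 4 to 6 weeks, an outbred stock with no transgene named. One group of 3 libraries came from oocytes microinjected with water and the other group of 3 from oocytes microinjected with a mixture of phthalate metabolites, breakdown products of plasticizers whose identities and dose are not stated in the labels. Both groups were then cultured in maturation medium with follicle-stimulating hormone and serum before collection. The labels name no animal, culture or pool, so each group counted as 1 sample, no difference between the groups was tested, and the spread within a group may be technical. Following the titles, a library is named here as an oocyte, but the extraction protocol speaks of a single oocyte for a group, so 3 libraries may share 1 oocyte.

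In classical nuclear import, an importin alpha binds the nuclear localization signal of a cargo and is itself carried through the nuclear pore by importin beta 1, the product of Kpnb1. Inside the nucleus the GTP-bound form of Ran releases the cargo, and exportins return the adaptors to the cytoplasm. Transportin 1 and the larger importins bind their own cargoes with no alpha adaptor. Kpna7 is known as an importin alpha of oocytes and early embryos, and importins also hold back spindle assembly factors.

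Kpna2 and Kpna7 carried most of the importin alpha counts, and their promoter windows differ in their content of CG dinucleotides, the sites of DNA methylation, so both windows are shown. Each runs from 250 bases before to 50 bases after a RefSeq start site, on the minus strand of GRCm38.p6, and is written 5′ to 3′ with every CG in capitals. The Kpna7 window is chr5:145009587-145009886, inside the gene as annotated by GENCODE M21 (chr5:144983519-145084030), and the Kpna2 window is chr11:106999476-106999775.
Kpna7: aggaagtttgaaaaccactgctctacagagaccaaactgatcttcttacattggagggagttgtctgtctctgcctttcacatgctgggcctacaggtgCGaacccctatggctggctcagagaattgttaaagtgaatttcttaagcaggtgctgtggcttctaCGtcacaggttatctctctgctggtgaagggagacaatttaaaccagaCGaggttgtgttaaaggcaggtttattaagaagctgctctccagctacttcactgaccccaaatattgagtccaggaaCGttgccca
Kpna2: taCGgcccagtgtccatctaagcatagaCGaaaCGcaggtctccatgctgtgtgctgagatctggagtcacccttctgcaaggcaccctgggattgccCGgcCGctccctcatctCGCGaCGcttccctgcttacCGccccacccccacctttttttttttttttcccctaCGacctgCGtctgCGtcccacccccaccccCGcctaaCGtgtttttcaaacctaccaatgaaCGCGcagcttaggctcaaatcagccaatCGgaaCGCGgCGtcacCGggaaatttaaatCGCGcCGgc

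The Kpna7 window held 4 CG dinucleotides, and the Kpna2 window held 24. The ratio of observed to expected CG, which corrects for the content of C and G, was 0.245 for Kpna7 and 1.05 for Kpna2. Over 32851 RefSeq promoter windows of the same length the median ratio was 0.384, and 35.1% of windows lay below Kpna7 and 96.2% below Kpna2. The RefSeq table matched 7 of the 10 members with 9 windows, and Kpna1, Kpna3 and Kpna6 were unmatched. The ratio was 0.851 for Kpna4, 0.960 for Kpnb1 and 1.01 for Ipo7. The windows of Tnpo1 had 0.785 and 0.938. Ipo5 had 0.993 at one start and 0 at the other, so Kpna7 was the lowest of the 7 matched members apart from that second start of Ipo5. On either strand, CCAAT was present in 6 of the 9 windows, those of Kpna7 and Kpna2 among them, against 37.4% of all windows. TATAAA was in 2 of the 9 (13.6% of all windows) and CACGTG, an E-box, in 1 (7.15%). TAATTG, a motif bound by the oocyte factor NOBOX, was in 0 of the 9, against 2628 of the 32851 windows, and no match overlapped a match of another motif.

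The libraries held between 252267 and 300917 gene counts, and ERCC spike-in counts, kept out of these totals, from 292 to 753. Even values made up 68.0% to 71.1% of the counts from 1 to 20 in a library, as when both mates of a read pair are counted. All 10 oocyte markers had counts in both groups, and Zp3, a gene of the egg coat, had from 575 to 1180 counts per oocyte. They took 2.43% to 2.86% of the counts under water injection and 2.40% to 2.71% under phthalate injection. Of 20 cumulus and granulosa cell markers, 10 were at 0 in every library, among them Amh, Foxl2 and Ptx3. The list took 13 to 39 counts per water oocyte and 10 to 25 per phthalate oocyte, and Nr5a2 gave most of these counts. The part of cumulus RNA in the importin values was not tested.

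Kpna7 was the second most abundant importin. It had 141, 100 and 137 counts under water injection (oocytes 1, 2 and 3) and 124, 119 and 88 under phthalate injection. As CPM, the counts of a gene in every 1000000 of its library, scaled by TMM factors for differences in library composition, this was 507, 336 and 483 under water injection and 479, 394 and 342 under phthalate injection. On this scale the lowest value of all was in water oocyte 2 and the highest in water oocyte 1, so the water group alone spanned the range of both groups. By library totals, phthalate oocyte 3 was the lowest, at 130.5 CPM per kilobase of transcript against 135.5 for water oocyte 2. The summed counts were 378 for water and 331 for phthalate, or 443 CPM (95% exact Poisson interval 382 to 510) and 403 CPM (345 to 470) by library totals. The log2 ratio of phthalate over water was -0.13, with a 95% exact interval from -0.44 to 0.18. It was -0.30 without water oocyte 2, -0.014 without phthalate oocyte 3 and -0.017 without water oocyte 1. All intervals were computed on counts halved to read pairs and cover counting error only.

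Kpna2, an importin alpha known to be abundant in dividing cells and in oocytes, had the highest level of the 10 genes. Its gene lies at chr11:106988629-106999541. It had 157, 221 and 252 counts under water injection and 126, 194 and 216 under phthalate injection. The corresponding TMM-scaled CPM was 565, 742 and 889, and 487, 643 and 840. Oocyte 1 was the lowest of its group and oocyte 3 the highest in both groups, and the ranges overlapped. The sums were 630 and 536 counts, and the log2 ratio was -0.17 (95% interval -0.41 to 0.068). Leaving out phthalate oocyte 3 gave -0.35, leaving out phthalate oocyte 1 gave -0.0069, and leaving out water oocyte 3 gave -0.011. A copy of Kpna2 limits this value: 92.4% of the stretches of 50 bases in its longest coding transcript also occur in transcripts of other genes, nearly all of them in Gm10184 (91.0%). Reads from this shared sequence may have been dropped from Kpna2 or assigned to it from its copy, since the authors' treatment of such reads is not given in the sources used here, and its level is uncertain. Gm10184 was not analysed here, nor were the other genes beginning with Gm that are named for shared sequence. For Kpna7 the shared part was 0.957%, in Gm43563, and 1.59% of its exon bases overlap exons of Arpc1a.

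**Figure D1:**
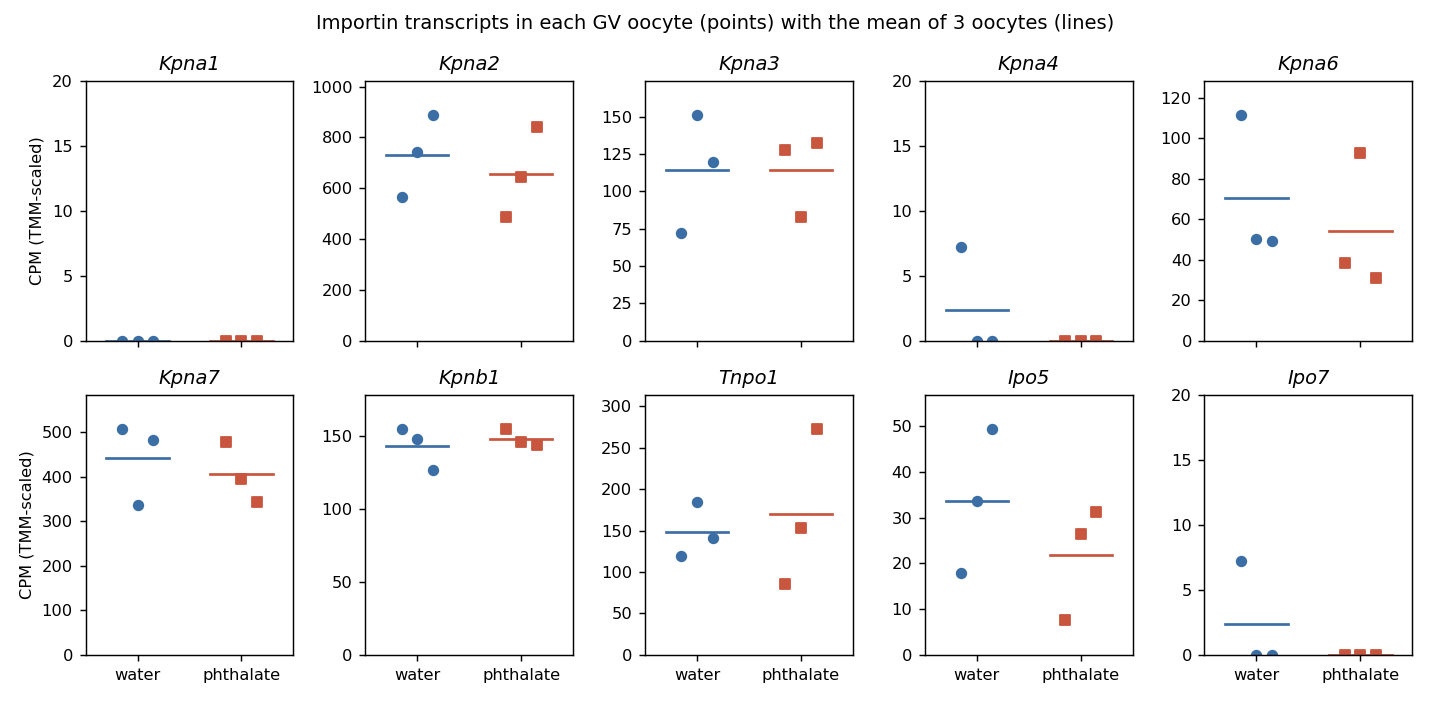
TMM-scaled CPM (vertical axis, linear from 0, own scale per gene) of the 10 importin genes in the 3 water oocytes (circles) and the 3 phthalate oocytes (squares), with lines at the group means. Points of the groups overlap for every gene with more than 3 counts in a group; Kpna1 is at 0 throughout, and Kpna4 and Ipo7 have counts in water oocyte 1 alone.

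The make-up of the importin alpha transcripts varied more among oocytes than between the group sums. Per length of the longest coding transcript in GENCODE M21, Kpna7 made up 39.8%, 25.2% and 29.5% of importin alpha counts under water injection. In the phthalate oocytes it made up 41.5%, 31.5% and 23.8%. Oocyte 1 had the highest share in each group, and the groups overlapped over most of their range. In the group sums the share was 31.1% under water and 31.6% under phthalate injection, which differ by 0.559 percentage points. Its sign changed when one oocyte was left out: it was -2.31 without water oocyte 2, -0.417 without water oocyte 3 and -3.39 without phthalate oocyte 1. It was 4.14 without water oocyte 1 and 4.85 without phthalate oocyte 3. Kpna2 supplied 61.9% and 61.2% of the summed importin alpha counts per length, so Kpna2 and Kpna7 together left little to the other 4 genes. The Kpna7 level was 0.752, 0.379 and 0.455 times the Kpna2 level per length under water injection, and 0.824, 0.514 and 0.341 times under phthalate injection. Kpna2 was thus the higher of the pair in all 6 oocytes, with the reservation on its copy.

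**Figure D2:**
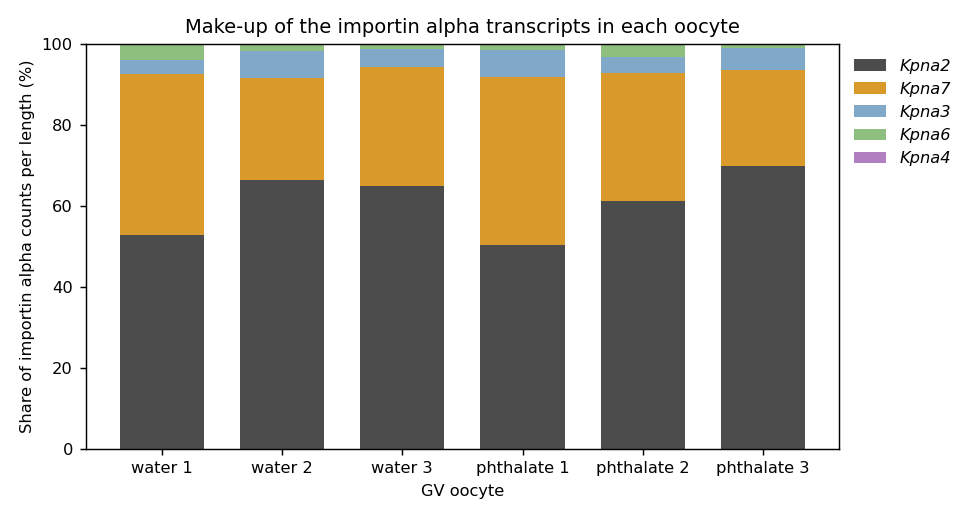
Share of each importin alpha gene in the importin alpha counts per length (vertical axis, percent) in each oocyte (horizontal axis). Kpna7 takes from 23.8% to 41.5%, with its highest share in oocyte 1 of both groups; Kpna1, at 0, is not drawn.

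Among the remaining importin alpha genes, Kpna3 and Kpna6 were measured at low counts and Kpna1 and Kpna4 lay at or near 0. Kpna3, an adaptor closely related to Kpna4 (chr14:61365211-61439874 in GRCm38), had 20, 45 and 34 counts under water injection and 33, 25 and 34 under phthalate injection. Water oocytes 1 and 2 were its lowest and highest, and the log2 ratio was -0.044 (95% interval -0.67 to 0.55). Kpna6, an importin alpha that mouse embryos are known to need from the mother for their first cleavages (chr4:129643980-129672767), had 31, 15 and 14 counts under water injection. It had 10, 28 and 8 counts under phthalate injection. One oocyte in each group stood above the other two, and the log2 ratio was -0.32 (-1.17 to 0.51). The Kpna6 ratio was 0.17 without water oocyte 1 and -1.01 without phthalate oocyte 2, the library with the higher phthalate value. The sign of the Kpna3 ratio also changed, to 0.22 without water oocyte 2 and to 0.17 without phthalate oocyte 2.

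Kpna1, an importin alpha of broad tissue expression (chr16:35978750-36037131), had 0 counts in all 6 oocytes. Over the 1676410 gene counts this allows a level of up to 3.58 CPM (3 read pairs). Its longest coding transcript of 5039 bases shares no stretch of 50 bases with another gene's transcripts, and no exon of another gene overlaps it. Kpna4 (chr3:69067149-69127113) had 2 counts, both in water oocyte 1, and no fold is given because both groups are at or under 3 counts. In the table as a whole 49.3% of genes were at 0 in every library. A value near 0 was also seen for Gapdh, a glycolytic enzyme expressed in most cells, with 3 counts in total, all in phthalate oocyte 2. Unlike Kpna1, Gapdh shares 82.5% of its transcript stretches of 50 bases with other genes. A count of 0 limits the counts assigned to a gene and does not by itself show that its transcript was missing.

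The importin beta family members were led by Kpnb1 and Tnpo1. Kpnb1, the import receptor that works with the alpha adaptors (chr11:97159714-97187881), had the smallest spread in CPM of the members with counts in every oocyte. It had 43, 44 and 36 counts under water injection and 40, 44 and 37 under phthalate injection, or 155, 148, 127, 155, 146 and 144 TMM-scaled CPM in that order. Its highest CPM was 1.22 times its lowest, against a median of 2.21 over the 4644 genes that passed the filter on low counts. This median falls to 1.54 over the 448 genes averaging 100 counts or more, while Kpnb1 averaged 40.7 counts. No comparison was made with genes of similar count, so whether Kpnb1 is steadier than such genes was not tested. The log2 ratio was 0.038 (95% interval -0.52 to 0.55). It was -0.039 without water oocyte 3, so its sign rested on that library. Of the Kpnb1 exon bases, 7.07% are overlapped by Gm11583.

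Tnpo1, which encodes transportin 1, the receptor of many RNA-binding proteins (chr13:98839019-98926384), varied more. It had 33, 55 and 40 counts under water injection and 22, 46 and 70 under phthalate injection. Phthalate oocytes 1 and 3 were the lowest and highest of all 6, at 85.0 and 272 TMM-scaled CPM, and enclosed the water group. The log2 ratio was 0.17 (95% interval -0.34 to 0.68). It was -0.29 without phthalate oocyte 3 and 0.47 without phthalate oocyte 1. Of its transcript stretches of 50 bases, 14.1% also occur in Gm6493.

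Ipo5, a carrier of ribosomal proteins and histones (chr14:120911224-120947999), had 5, 10 and 14 counts under water injection and 2, 8 and 8 under phthalate injection. The groups overlapped, with phthalate oocyte 1 the lowest and water oocyte 3 the highest. Its summed counts of 29 and 18 gave a log2 ratio of -0.63, or 1.54-fold lower in the phthalate group, with a wide 95% interval from -1.96 to 0.73. The ratio was -0.25 without water oocyte 3 and -0.25 without phthalate oocyte 1, and -0.91 without water oocyte 1 or without phthalate oocyte 3. Of the Ipo5 transcript stretches of 50 bases, 5.88% also occur in Gm14857. Ipo7, known to import ribosomal proteins and, with importin beta 1, linker histone (chr7:110018274-110056609), had 2 counts, both in water oocyte 1. It gave no fold for the same reason as Kpna4.

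Per kilobase of the longest coding transcript, the mean level over the 6 oocytes, in CPM by library totals, placed Kpna2 first at 337 ± 68.6 and Kpna7 second at 173 ± 35.3 CPM per kilobase (SD, n = 6 libraries). The ranges of this pair did not overlap, at 243 to 432 and 130.5 to 213 CPM per kilobase. Kpna3 followed with 27.97 ± 7.05, Kpnb1 with 24.7 ± 2.21 and Tnpo1 with 18.6 ± 6.80 CPM per kilobase. The highest Kpna3 value, 36.8 CPM per kilobase, lay below the lowest Kpna7 value. Kpna6 had 11.03 ± 5.95 and Ipo5 6.10 ± 3.09 CPM per kilobase. From Kpna3 to Ipo5 each gene overlapped its neighbour in this order, so neighbouring places are not distinct beyond the spread of the oocytes. Some genes further apart did not overlap. The highest Ipo5 value, 10.9, lay below the lowest of Kpna3, 18.2, and of Kpnb1, 21.5 CPM per kilobase. The highest Kpna6 value, 20.1 CPM per kilobase, also lay below the lowest of Kpnb1. Ipo7 and Kpna4 had means of 0.260 and 0.140 CPM per kilobase from water oocyte 1 alone. With the mean length of the coding transcripts, Tnpo1 moved to the third place at 31.4 CPM per kilobase, and Kpna2 and Kpna7 stayed first and second. Their levels rose to 759 and 284, and that of Kpna6 to 22.8 CPM per kilobase, while Kpna3, Kpnb1 and Ipo5 kept theirs. The levels thus depend on the length chosen.

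**Figure D3:**
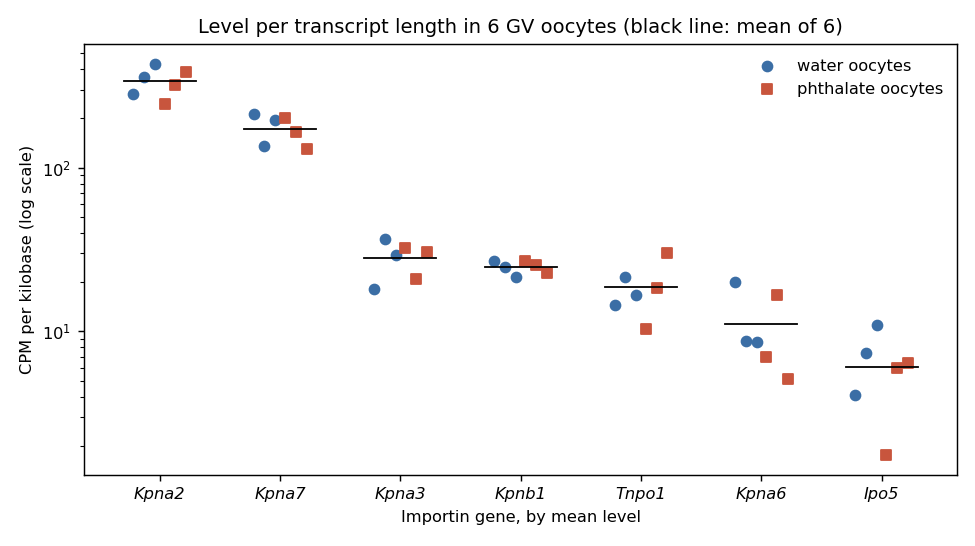
Level of the 7 importin genes with a mean above 1 CPM per kilobase (vertical axis, log scale) under water injection (circles) and the phthalate oocytes (squares), ordered by the mean of 6 oocytes (black lines). Kpna2 and Kpna7 stand above the rest, at means of 337 and 173, while the genes from Kpna3 to Ipo5 overlap their neighbours.

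Between the groups, 6 of the 10 importins (Kpna2, Kpna3, Kpna6, Kpna7, Kpnb1 and Tnpo1) passed the gene filter, and their log2 ratios lay between -0.32 and 0.17. Of these 6, 0 reached a ratio of 1.5-fold in either direction, against 15.2% of the 4644 genes that passed. Ipo5, which did not pass, was the 1 member past 1.5-fold, in the direction in which 8.38% of the genes that passed were lower by as much. The oocyte CPM of the groups overlapped for each of these 6 as well, while 10.1% of the genes that passed had groups that did not overlap. For 6 genes, neither count of 0 stands apart from these shares. The 5th and 95th percentiles of the log2 ratio over the genes that passed were -0.73 and 0.65, with a median of -0.0015. For each of the 7 members with a ratio, the 95% counting interval included 0. A change within those intervals cannot be told from none here. They leave out the spread between oocytes, so a ratio outside them would not by itself show a change. The intervals for Kpna6 and Ipo5 reach below -1 on the log2 scale.

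**Figure D4:**
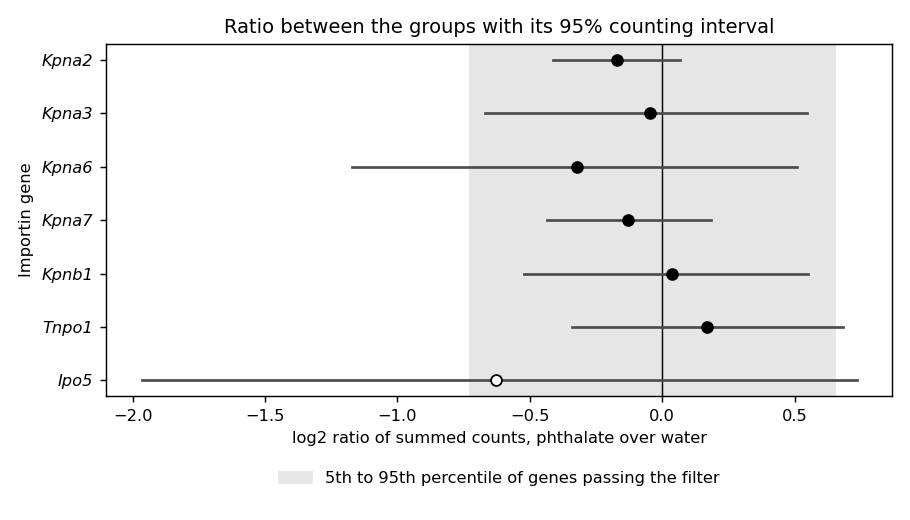
Log2 ratio of summed counts, phthalate over water (horizontal axis), for the 7 importins with more than 3 counts in a group, with 95% counting intervals on read pairs. Filled points passed the gene filter and the open point, Ipo5, did not; all intervals include 0, and the grey band spans -0.73 to 0.65.

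Summed over the 10 genes, importins took 0.161%, 0.163% and 0.186% of the counts under water injection and 0.142%, 0.157% and 0.168% under phthalate injection. Phthalate oocyte 1 was the lowest and water oocyte 3 the highest, and the groups overlapped. The summed share was 0.170% (95% exact binomial interval 0.158 to 0.183) for water and 0.156% (0.144 to 0.168) for phthalate, so the intervals overlapped as well. The importin alpha genes took 1169 counts under water injection and 1005 in the phthalate group, a log2 ratio of shares of -0.16. By library totals their share was 0.130%, 0.127% and 0.154% under water injection and 0.116%, 0.124% and 0.126% under phthalate injection, and these groups did not overlap. With TMM scaling they did: phthalate oocyte 3, at 1346 summed CPM, lay above water oocytes 1 and 2, at 1263 and 1279. The 4 importin beta family members took 282 and 277 counts, a log2 ratio of shares of 0.029. Since Kpna2 and Kpna7 hold most of the alpha counts, the alpha value is close to their own. Fewer transcripts per oocyte and a larger amount of other RNA cannot be told apart in such shares.

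Across the 6 oocytes, the genes whose profile was closest to that of Kpna7, among 447 others with a mean count of at least 100, were Cdca8, Anxa7 and Gdf9. Closeness was measured on log2 CPM as a root-mean-square difference, each gene centred on its own mean, and was 0.121, 0.132 and 0.142 for these genes against a median of 0.349. Cdca8 encodes borealin, a subunit of the chromosomal passenger complex, and it had 113, 98 and 120 counts under water injection and 112, 117 and 91 under phthalate injection. Anxa7 encodes a calcium-dependent phospholipid-binding protein. Gdf9, which encodes a growth factor that oocytes secrete, gave 3296, 2268 and 2476 counts under water injection and 2610, 2533 and 2184 under phthalate injection, with its highest count in water oocyte 1, as for Kpna7. The 6 points per gene come from the same libraries, so the likeness is a description of them.

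The other carriers and the partners of the importins gave mixed directions. Among 7 other importin beta family genes, 3 passed the filter, and 0 of them reached 1.5-fold, against 15.2% of all genes that passed, a share at which 0 of 3 does not stand apart. Ipo8, a close relative of Ipo7, was the most abundant with 112, 116 and 84 counts under water injection and 111, 131 and 84 under phthalate injection. Its log2 ratio was 0.13 (95% interval -0.20 to 0.45), and its counts contrast with the 2 counts of Ipo7. Of 7 exportin genes, 3 passed: Xpo1, the main carrier of proteins out of the nucleus, had a log2 ratio of 0.60 (-0.40 to 1.73) and Xpo7 one of -0.79 (-1.73 to 0.19). Xpo5, the pre-microRNA exporter and the most abundant of the list, had 0.40 (-0.46 to 1.36), and the groups overlapped for all 3. Xpo1 and Xpo7 are named because they were the 2 exportins past 1.5-fold, after their values were seen. Over all genes that passed, 6.78% were higher and 8.38% lower by as much. An exon of Npm2, an oocyte gene with 4194 counts in total, overlaps 0.205% of the Xpo7 exon bases.

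Among 8 genes of the Ran cycle, 5 passed and 2 were higher by 1.5-fold in the phthalate group, against 6.78% of all genes that passed, and 0 were lower by as much. Ran, the GTPase that gives transport its direction, had 14, 10 and 10 counts under water injection and 15, 20 and 16 under phthalate injection. Its CPM did not overlap between the groups, as for 5.15% of all genes that passed with phthalate higher, and its log2 ratio was 0.65 (95% interval -0.26 to 1.65). Of its transcript stretches of 50 bases, 15.4% also occur in Gm13461. Ranbp3, a cofactor of Xpo1, had 54, 51 and 38 counts under water injection and 87, 96 and 48 under phthalate injection. Its log2 ratio was 0.75 (0.31 to 1.19), and phthalate oocyte 3, at 187 CPM, lay below the highest water oocyte, at 194 CPM. Of the 3 genes that did not pass, Nutf2, the import factor of Ran itself, had 4, 14 and 10 counts under water injection and 0, 4 and 4 under phthalate injection. Its log2 ratio of -1.75 (-3.81 to -0.07) was the largest in size of this list and went the other way, with overlapping groups. Rangap1, the GTPase activator of Ran, had -0.40 (-2.79 to 1.55). The median of the 5 genes that passed was 0.18, and it was -0.076 without water oocyte 3 and -0.10 without phthalate oocyte 1.

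Nucleoporins, the proteins of the pore that importins pass, had a median log2 ratio of 0.0024 over the 24 genes that passed, with 12 above 0 and 12 below. Nup214, on the cytoplasmic face of the pore, was the most abundant, with 261, 253 and 222 counts under water injection and 203, 289 and 213 under phthalate injection. Its log2 ratio was -0.00031 (95% interval -0.22 to 0.21). Nup93, a scaffold of the inner ring, was higher in the phthalate group at 0.80 (0.10 to 1.45). Aaas, a nucleoporin anchored at the pore membrane, was higher at 0.70 (0.02 to 1.34), and Seh1l, a subunit of the Y complex, was lower at -0.65 (-1.65 to 0.37). The groups did not overlap for these 3 genes, nor for Rae1 at 0.35 (-0.19 to 0.90). Nup133, which did not pass, had 10, 9 and 6 counts under water injection and 5, 4 and 5 under phthalate injection, without overlap in CPM, at -0.77 (-2.30 to 0.75). Ahctf1, which recruits pore proteins to chromatin, had the largest ratio in size of the list, at -1.09 (-2.06 to -0.22), and Nup153 had -0.73 (-1.53 to 0.011). Both had overlapping groups. Thus 5 of 24 nucleoporins were past 1.5-fold, against 15.2% of all genes that passed, and 4 of 24 did not overlap, against 10.1%.

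Spindle assembly factors that importins hold back were measured as a last list, in which 7 of 8 genes passed and 0 reached 1.5-fold, against 15.2% of all genes that passed. Tacc3, a spindle protein and the most abundant of the list, had 248, 309 and 223 counts under water injection and 271, 247 and 311 under phthalate injection, a log2 ratio of 0.15 (95% interval -0.06 to 0.35). Of its exon bases, 8.14% overlap Tmem129, which had 4 counts. Tpx2, the best known importin alpha cargo of this kind, had 64, 73 and 53 counts against 54, 56 and 34, a ratio of -0.34 (-0.80 to 0.12). Kif22, a chromosome-binding kinesin, was the 1 gene that passed whose groups did not overlap, at 0.24 (-0.03 to 0.51), against 10.1% of all genes. Hmmr, which did not pass, had 0, 0 and 2 counts under water injection and 2, 10 and 4 under phthalate injection, a log2 ratio of 3.06 (0.16 to 8.53) that rests on 2 counts in the water group. Water oocyte 3 and phthalate oocyte 1 had the same count of Hmmr. The list median was -0.061. Rae1, Kif22, Hmmr, Nutf2, Rangap1, Ahctf1, Nup133, Nup153 and Tpx2 were named after their values were seen.

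**Figure D5:**
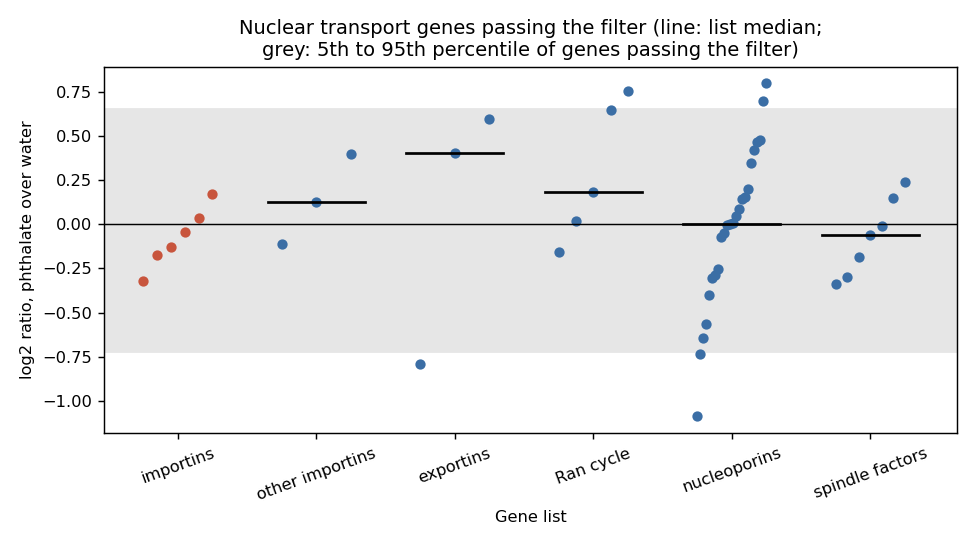
Log2 ratio of phthalate over water (vertical axis) for the genes passing the filter among the importins and 5 lists of nuclear transport genes (horizontal axis), with list medians as black lines and a grey band from the 5th to the 95th percentile of all genes that passed. The 6 importins drawn lie between -0.32 and 0.17, inside the band. The exportin Xpo7, the Ran cycle gene Ranbp3 and the nucleoporins Nup93, Aaas, Ahctf1 and Nup153 lie outside it.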

How the data were processed

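The deposited values are raw counts, whole numbers that the authors did not normalize, in 25239 gene rows and 92 ERCC spike-in rows. The submitters' processing notes name cutadapt, Trimmomatic, HISAT2, DESeq2 and mm10, with no role. The counting tool, annotation, strand and handling of molecular identifiers are not given in the sources used here. Reads were pairs of 150 bp, per the labels.

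ERCC counts stayed out of totals. The gene filter was filterByExpr of edgeR at a minimum count of 10 and a minimum total count of 15. Counts were summed per group and divided by totals scaled by TMM factors of the sums (edgeR 4.0.16, R 4.3.3), with no pseudocount. Ratio intervals are Clopper-Pearson intervals of 2 counts given their sum, on halved counts, because the mates of a read pair are not independent. They cover counting error only and make no allowance for PCR copies. The ratio code was tested on simulated data. Lengths, coordinates and shared 50-base stretches came from GENCODE M21 (GRCm38, the build mm10), and promoters from RefSeq GRCm38.p6. Named genes are the 10 members, each list's most abundant gene, its genes past 1.5-fold without overlap, and the 3 genes most like Kpna7. Members and lists were chosen with earlier results of these data known. Alternatives were DESeq2 1.42.0 size factors, library totals, omission of Rn45s, mean CPM, no filter, other lengths, and each oocyte left out.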

Additional observations from a re-analysis of the deposited data

How the results depend on the processing

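No paired analysis was possible because the labels give no animals or cultures to pair and no test was fitted. The normalization moved no member's log2 ratio outside its counting interval, and no alternative moved the summed importin share by more than the spread between oocytes. That log2 ratio of shares was -0.12, and leaving out 1 oocyte gave -0.18 to -0.055. The difference in Kpna7 share ranged from -3.39 to 4.85 percentage points with 1 oocyte left out. The number of members past 1.5-fold was 1 and ranged from 0 to 2: it was 0 without water oocyte 3 or phthalate oocyte 1, and 2, Ipo5 and Kpna6, without phthalate oocyte 2. With the mean length of coding transcripts, 5 of the 10 members kept their place in the order of levels. On counts as deposited, which treats both mates as independent, the interval of Kpna2 narrowed to -0.34 to -0.0029 and no longer included 0. The same change was seen for Xpo7, Nup153, Tpx2, Kif22 and Tacc3 among the other transport genes named. The median of the exportin list was 0.40, and 0.014 without a gene filter, when 3 more genes with a ratio enter. Leaving out 1 oocyte gave it -0.26 to 0.45, negative without water oocyte 1 (-0.26) or phthalate oocyte 3 (-0.079). The range was -0.027 to 0.12 for nucleoporins and -0.21 to -0.016 for spindle factors; the cause was not tested. Depth limits Ipo5, Kpna6 and the members near 0 most.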
